A study of Mus musculus with 6 samples.

Results

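The genes described here encode subunits of the NCoR and SIN3 corepressor complexes and their class I histone deacetylases. They were chosen by name, as complexes that the leukaemia fusion protein PML/RARα is known to recruit: Ncor1, Tbl1x, Tbl1xr1, Gps2 and Hdac3 of the NCoR complex, Hdac1 and Hdac2, and the scaffolds Sin3a and Sin3b. All 9 were found among the 16440 genes of the deposited table, and all 9 passed the filter on low values, with 14595 genes tested. The RNA-seq data comprised 3 libraries of normal myeloid progenitors (MPs) and 3 libraries of c-Kit+ APL progenitors, all of FVB N/J strain mice. The normal MPs were bone marrow (BM) cells sorted as Lin-Sca-1-c-Kit+, a gate that leaves out lineage-positive cells and, through Sca-1, stem cells. The APL cells came from hMRP8-PML/RARα transgenic mice, in which the MRP8 promoter drives the fusion gene in myeloid cells. They were labelled with GFP by a MigR1 retrovirus, grew in sub-lethally irradiated syngeneic recipients and were sorted as GFP-labelled c-Kit+ cells. Transgene, retrovirus, transplantation into irradiated recipients and the different sort gate thus set the APL group apart from the MPs together. The question was which genes are dysregulated in immature APL cells relative to MPs. The labels give no age, and the study's methods put the recipients at a young adult age. The series calls its 3 libraries per group biological replicates without naming separate mice or leukaemias, and p-values measure the spread between these libraries.

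Corepressors do not bind DNA themselves. The NCoR complex is held together by a scaffold protein such as NCoR1, carries the TBL1 and GPS2 proteins and acts through the deacetylase HDAC3, which the scaffold activates. It sits on nuclear receptors without ligand, and retinoic acid normally releases it from RARα, whereas PML/RARα holds it more tightly. The SIN3 complexes are built on SIN3A or SIN3B and act through HDAC1 and HDAC2, a pair of closely related enzymes that also serve the NuRD and CoREST complexes.

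Expression was read on 2 scales. Scaled fragments are the deposited numbers of fragments per gene, already scaled by a factor of each library, and served for comparing the groups. FPKM, which also divides by transcript length, served for comparing genes with each other. A gene was called when limma's test on log2(scaled fragments + 1) gave a Benjamini-Hochberg adjusted p under 0.05 over all genes tested and a fold change over 1.5. By this rule 1 of the 9 members was downregulated in the APL progenitors (Hdac2), against 24.4% of all genes tested, and 2 of 9 were upregulated (Sin3a and Sin3b), against 21.7%. At the adjusted p alone, 3 of 9 were lower (Hdac2, Gps2 and Hdac3; 37.3% of all genes) and 2 of 9 were higher (29.7% of all genes). The 3 APL values lay wholly outside the 3 MP values for 5 of 9 members, against 70.9% of all genes tested. The median log2 fold change was 0.10 over the members and −0.10 over all genes. The members' counts in each direction were thus near or below the shares over all genes, and among the members the change of Sin3a was by far the largest. Fewer cells of a type and less RNA per cell cannot be told apart in these bulk samples.

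The scaled totals of the libraries lay between 21876288 and 25810097 fragments. MP library 3 stood apart from MP libraries 1 and 2 in a way that followed the fragments per FPKM of a gene, a proxy of its length: its log2 value was higher by a median of 0.33 in the genes with the lowest ratios and differed by −0.13 in those with the highest, when genes were split at the quartiles of the ratio. APL library 1 differed from the other APL libraries the opposite way, by −0.14 and 0.05. Each member was therefore also compared without these 2 libraries. Both groups carried Kit, used in the sort, with means of 10668 scaled fragments in the MPs and 5929 in the APL progenitors. Cd34, another progenitor marker, had 6684 and 82.6. Cd33 and Ly6a, listed with these 2 markers, were called higher in the APL progenitors. Ly6a encodes Sca-1, which the MP gate excluded and the APL gate did not use, so its call is not independent of the sort. Summed over 8 erythroid markers, scaled fragments ranged from 48343 to 61855 in the MPs and from 223 to 370 in the APL progenitors. Over 6 megakaryocyte markers the ranges were 2919 to 3914 and 225 to 309. Over 4 promyelocyte markers they were 306460 to 342338 and 770362 to 922558. None of these markers was at 0 in all libraries of a group. The sums moved with the group, and their part in the member results was not tested.

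**Figure D1:**
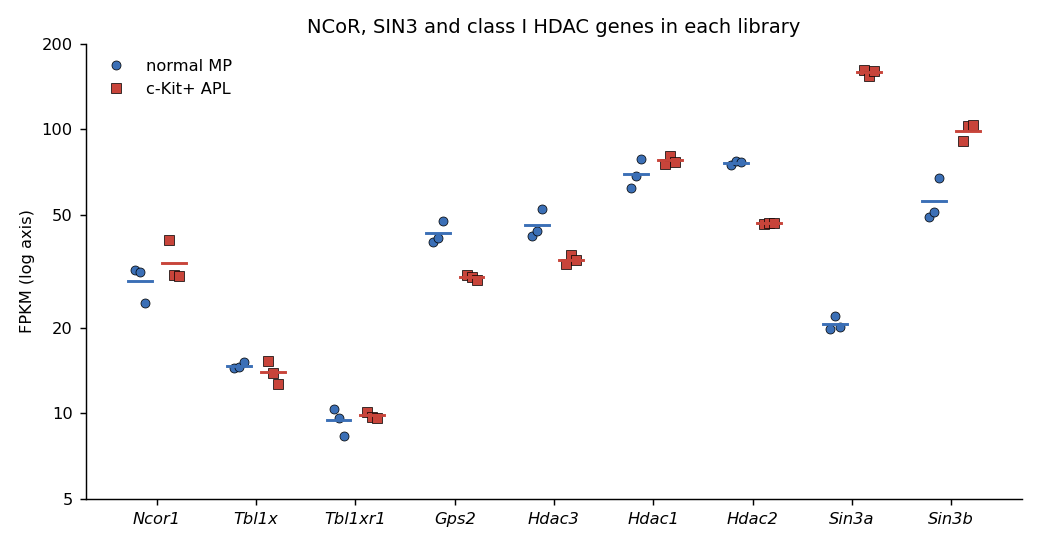
FPKM (log axis) of the 9 corepressor genes in each library, with circles for the 3 normal MP libraries, squares for the 3 c-Kit+ APL libraries and a line at each group mean. Sin3a lies between 19.9 and 22.1 in the MPs and between 154 and 162 in the APL progenitors, Hdac2 and Sin3b separate by less, and Ncor1, Tbl1x, Tbl1xr1 and Hdac1 overlap.

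Upstream sequence is shown for Sin3a, Sin3b and Hdac2, the 3 members that passed both thresholds. Each stretch is the 250 bases before a transcription start of RefSeq on GRCm38.p6, plus strand, where 7 of the 9 members had an entry. Sin3a has a pair of starts there, with upstream stretches at chr9:57071790-57072039 and chr9:57076126-57076375. The stretch of Sin3b is at chr8:72723020-72723269 and that of Hdac2 at chr10:36974294-36974543. Capitals mark matches, on either strand, to the GC box GGGCGG and to the CCAAT box CCAAT.
Sin3a start 1: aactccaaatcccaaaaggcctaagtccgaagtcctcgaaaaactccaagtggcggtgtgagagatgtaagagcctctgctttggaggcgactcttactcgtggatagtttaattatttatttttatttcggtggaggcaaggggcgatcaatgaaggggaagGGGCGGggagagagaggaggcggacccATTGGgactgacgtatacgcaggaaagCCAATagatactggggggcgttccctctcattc
Sin3a start 2: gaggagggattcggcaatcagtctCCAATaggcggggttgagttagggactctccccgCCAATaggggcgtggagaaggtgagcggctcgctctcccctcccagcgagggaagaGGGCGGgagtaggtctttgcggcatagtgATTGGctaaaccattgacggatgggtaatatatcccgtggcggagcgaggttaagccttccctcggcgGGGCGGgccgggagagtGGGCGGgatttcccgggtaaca
Sin3b: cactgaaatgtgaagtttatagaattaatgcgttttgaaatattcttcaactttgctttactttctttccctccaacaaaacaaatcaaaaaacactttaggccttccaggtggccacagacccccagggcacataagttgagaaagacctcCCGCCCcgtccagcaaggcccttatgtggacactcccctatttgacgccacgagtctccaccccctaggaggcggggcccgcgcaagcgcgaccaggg
Hdac2: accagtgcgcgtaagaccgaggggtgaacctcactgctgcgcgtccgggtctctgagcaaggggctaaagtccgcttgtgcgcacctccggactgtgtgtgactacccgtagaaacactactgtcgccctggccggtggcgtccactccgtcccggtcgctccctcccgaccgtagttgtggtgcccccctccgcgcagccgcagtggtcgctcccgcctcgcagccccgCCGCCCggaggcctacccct
The first stretch of Sin3a holds 1 GC box and 2 CCAAT boxes, and the second holds 3 of each. Sin3b and Hdac2 each hold 1 GC box and no CCAAT box. The E-box CACGTG and AGGTCA, the half-site of nuclear receptors such as RARα, were searched on both strands as well and match none of the 4 stretches. Over 32851 promoters of the same length, 32.7% hold the GC box, 33.8% the CCAAT box, 6.02% the E-box and 14.0% the half-site, and no searched motifs overlap each other in the stretches shown. G and C make up 50.8% and 61.6% of the Sin3a stretches, 50.8% of that of Sin3b and 68.8% of that of Hdac2.

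Sin3a, a scaffold whose paired amphipathic helices bind DNA-binding repressors, was upregulated more than any other member. The MP libraries held 3218, 3527 and 3221 scaled fragments and the APL libraries 25448, 24423 and 25682. Every APL library lay far above every MP library, and each group varied little within itself. The log2 fold change was 2.92 (SE 0.07), a 7.58-fold difference, with a limma adjusted p of 1.15e-08. In FPKM the level went from 20.7 ± 1.18 (SD, n = 3) to 159 ± 4.34 (SD, n = 3), which moved Sin3a from rank 3767 to rank 456 among all genes of the table. Of the 14595 genes tested, 564 (3.86%) had a larger log2 fold change. The rise was as large without MP library 3 and APL library 1, at 2.89. The gene (ID 20466) lies at chr9:57072040-57128368 on GRCm38, where RefSeq also places 2700012I20Rik. Reads of overlapping genes may not be told apart in the table. No gene named 2700012I20Rik was found among the deposited genes starting within 400 kb of Sin3a, so its share of these reads was not tested.

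No tested gene around Sin3a rose as much. Within 400 kb on either side, 11 other genes were tested, and their log2 fold changes ran from −1.04 (Neil1, a DNA glycosylase) to 1.20 (Scamp5, a secretory carrier membrane protein), with a median of −0.21. Just upstream, the phosphatase gene Ptpn9 had a log2 fold change of 0.29 (SE 0.07), and Gm10658, with the same start, one of −0.27 (SE 0.21). Man2c1, just downstream and encoding a mannosidase, had one of −0.38 (SE 0.08). Neil1 was the only neighbour called lower and Scamp5 the only one called higher. Over the 800 genes tested on chromosome 9 the median log2 fold change was −0.19, and 3.12% of them exceeded Sin3a.

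**Figure D2:**
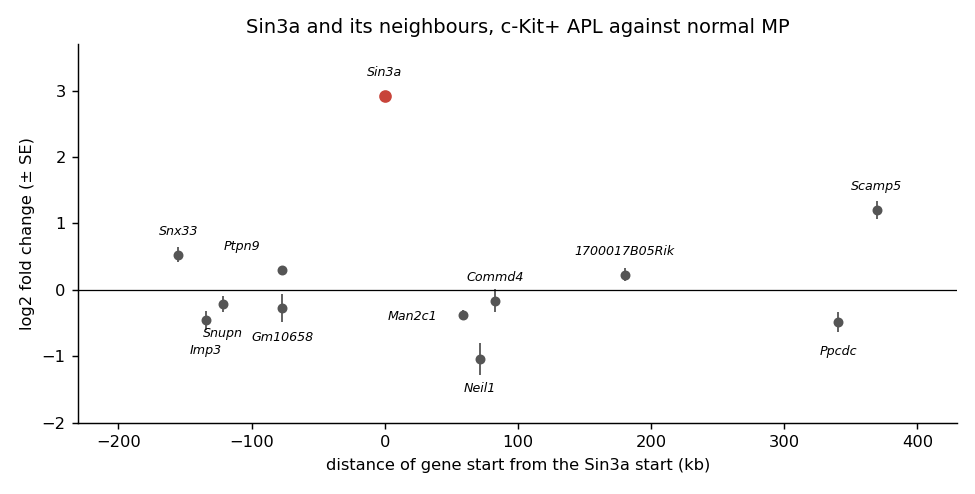
Log2 fold change (± SE) of c-Kit+ APL against normal MP for Sin3a and the 11 other genes tested within 400 kb, by the distance of their starts from that of Sin3a in kb. Sin3a stands at 2.92 and its neighbours between −1.04 and 1.20.

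Sin3b, the second scaffold of the family, was also upregulated. Its scaled fragments were 1669, 1716 and 2224 in the MP libraries and 2758, 3159 and 3207 in the APL libraries. The groups did not overlap, and MP library 3 was the highest of the MPs. On the log2 scale the fold change was 0.71 (SE 0.12; 1.64-fold) with a limma adjusted p of 0.000624, and it was 0.91 without MP library 3 and APL library 1. With all libraries scaled to the same total it was 0.58, just under the fold threshold. FPKM was 56.0 ± 9.92 (SD, n = 3) in the MPs and 99.0 ± 7.17 (SD, n = 3) in the APL progenitors. Sin3b (ID 20467; chr8:72723288-72758203) lies on a chromosome whose genes were higher as a whole. The median log2 fold change over the 778 genes tested on chromosome 8 was 0.48, against −0.13 over the genes of all other chromosomes, and Sin3b stood 0.23 above the former, with 36.2% of the chromosome's genes exceeding it. The part of this shift in the rise of Sin3b was not tested.

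Among the accessory subunits of the SIN3 complexes, those called higher also lay on chromosome 8. Of 17 tested, 3 were called higher and 2 lower, both shares below those over all genes (21.7% and 24.4%), with a median log2 fold change of −0.12. The 3 called higher were Sap30, which bridges SIN3 to other corepressors, and the PHD finger proteins Ing1 and Ing2, which read methylated histone H3. Sap30 had 694, 666 and 836 scaled fragments in the MP libraries and 1731, 2064 and 2057 in the APL libraries, a log2 fold change of 1.41 (SE 0.11). Ing1 and Ing2 had log2 fold changes of 0.76 (SE 0.09) and 0.78 (SE 0.09). Taking scaffolds and accessory subunits as a set, 4 of 4 genes on chromosome 8 were called higher, with a median log2 fold change of 0.77, on a chromosome where 42.0% of all genes tested were called higher. Of the 15 on other chromosomes, 1 (Sin3a) was called higher and 2 were called lower, with a median of −0.20. Sap30 stood 0.94 above the median of its chromosome, Ing1 0.28 and Ing2 0.30, and 16.3%, 33.8% and 32.5% of the chromosome's genes exceeded them.

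The 2 accessory subunits called lower were Sap25 and Fam60a. Sap25 was at 93.4, 125 and 176 scaled fragments in the MPs and at 24.2, 0 and 64.9 in the APL progenitors. The log2 fold change was −3.44 (SE 1.27, limma adjusted p of 0.0389), a size that rested on APL library 2 at 0. Without that library it was −1.65 (SE 0.43, limma adjusted p of 0.0113), and Sap25 was still called lower. The locus of Sap25 in the table is shared with other genes. Fam60a had a log2 fold change of −0.67 (SE 0.07). The remaining 12 subunits, among them the histone chaperones Rbbp4 and Rbbp7, did not pass both thresholds. At limma's adjusted p alone, the lower subunits were Sap25, Fam60a, Rbbp7, Arid4a, Arid4b, Sap18 and Phf12, beside 37.3% of all genes. The higher ones were Sap30, Ing1, Ing2 and Sap30l, beside 29.7% of all genes. The loci of Rbbp4, Rbbp7 and Sap18 in the table are shared with other genes.

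**Figure D3:**
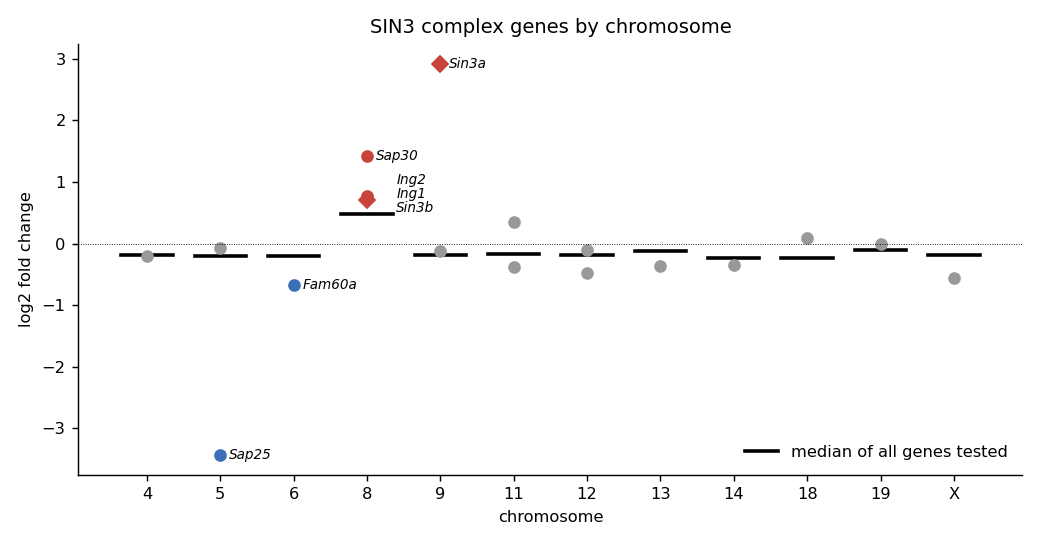
Log2 fold change of c-Kit+ APL against normal MP for the SIN3 scaffolds (diamonds) and accessory subunits (circles) by chromosome, with red for genes called higher, blue for genes called lower, grey for the others and a black bar at the median of all genes tested on that chromosome. The 4 genes on chromosome 8 lie above a chromosome median of 0.48, and Sin3a on chromosome 9 lies far above a median of −0.19.

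Hdac2 was the member that was downregulated. Its scaled fragments were 4523, 4672 and 4726 in the MP libraries and 2748, 2789 and 2879 in the APL libraries. The 3 APL values were closely grouped below all 3 MP values. The log2 fold change was −0.73 (SE 0.06; 1.65-fold lower) with a limma adjusted p of 9.7e-06, and −0.70 without MP library 3 and APL library 1. FPKM was 76.4 ± 1.31 (SD, n = 3) in the MPs and 46.8 ± 0.316 (SD, n = 3) in the APL progenitors. Hdac2 (ID 15182; chr10:36974544-37001888) lies on a chromosome with a median log2 fold change of −0.08.

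Hdac1, the paralogue that can take its place, was not called. The gene (ID 433759) lies at chr4:129516104-129542646. Its scaled fragments were 3600, 3894 and 4628 in the MPs and 4283, 4542 and 4490 in the APL progenitors. MP library 3 lay above every APL library, and MP libraries 1 and 2 lay below them. Its log2 fold change was 0.14 (SE 0.10, limma adjusted p of 0.216). Without MP library 3 and APL library 1 it was 0.27 with an adjusted p of 0.00688, still under the fold threshold. Its FPKM was 69.9 ± 8.37 (SD, n = 3) in the MPs and 77.8 ± 2.59 (SD, n = 3) in the APL progenitors.

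The balance between the class I deacetylases was compared as the ratio of FPKM within each library, which does not depend on how a library was scaled. A difference between libraries that follows gene length does not cancel in such a ratio when the paired genes differ in length. Hdac2 to Hdac1 was 1.20, 1.13 and 0.976 in the MP libraries and 0.613, 0.583 and 0.609 in the APL libraries. The 2 mRNAs were thus at about equal levels in the MPs, and Hdac1 was the more abundant in all 3 APL libraries. The log2 ratio differed by −0.87 between the groups (two-sided exact permutation p of 0.1, the smallest that 3 libraries against 3 allow). Hdac3 to Hdac1 was 0.678, 0.639 and 0.668 in the MPs and 0.443, 0.446 and 0.450 in the APL progenitors, a log2 difference of −0.57 (two-sided exact permutation p of 0.1). Over the 4 ratios compared, the exact permutation p of 0.1 became 0.133 after Benjamini-Hochberg adjustment.

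Hdac3, the catalytic subunit of the NCoR complex, was lower in the APL progenitors by less than the fold threshold. It had 2199, 2284 and 2806 scaled fragments in the MPs and 1752, 1898 and 1824 in the APL progenitors, without overlap. Its log2 fold change was −0.41 (SE 0.10; 1.32-fold lower) with a limma adjusted p of 0.00545. MP library 3 was the highest of all, and the log2 fold change was −0.27 without it and APL library 1. FPKM went from 46.2 ± 5.61 (SD, n = 3) to 34.7 ± 1.25 (SD, n = 3).

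Gps2, a small subunit that binds the N-terminal part of NCoR, was also lower by less than the fold threshold. Its scaled fragments were 1426, 1401 and 1725 in the MPs and 1036, 999 and 1017 in the APL progenitors. The groups did not overlap, and the APL libraries were close to each other. The log2 fold change was −0.57 (SE 0.09; 1.48-fold lower) with a limma adjusted p of 0.000529. It was −0.49 without MP library 3 and APL library 1 and −0.70 with all libraries scaled to the same total, which puts it past the fold threshold. FPKM went from 43.1 ± 4.09 (SD, n = 3) to 30.2 ± 0.695 (SD, n = 3). The gene (ID 56310) lies at chr11:69914192-69916591.

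The scaffold Ncor1 was not called. It had 8283, 8092 and 6090 scaled fragments in the MPs and 10003, 7852 and 8030 in the APL progenitors. The groups overlapped, with APL library 1 the highest and MP library 3 the lowest. The log2 fold change was 0.21 (SE 0.14, limma adjusted p of 0.213), and it was −0.04 without those 2 libraries. FPKM was 29.3 ± 4.22 (SD, n = 3) in the MPs and 34.0 ± 5.81 (SD, n = 3) in the APL progenitors. Ncor1 (ID 20185; chr11:62281473-62457332) shares its locus in the table with another gene, and RefSeq places Ttc19 across it. Ttc19 had a mean of 323 scaled fragments in the MPs and 355 in the APL progenitors, far fewer than Ncor1.

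The paralogues Tbl1x and Tbl1xr1, whose WD40 proteins link the complex to histones and to the ubiquitin machinery, were not called either. They lie at chrX:77511227-77660265 and chr3:22076652-22216594. Tbl1x had 991, 990 and 1043 scaled fragments in the MPs and 1029, 931 and 876 in the APL progenitors. Tbl1xr1 had 2248, 2137 and 1765 scaled fragments in the MPs and 2213, 2167 and 2160 in the APL progenitors. Both overlapped between the groups. The log2 fold changes were −0.10 (SE 0.08) for Tbl1x and 0.10 (SE 0.09) for Tbl1xr1, with limma adjusted p of 0.332 and 0.389. The sign for Tbl1xr1 turned with the scaling to the same total, at −0.03. In FPKM, Tbl1xr1 to Tbl1x was 0.722, 0.664 and 0.549 in the MPs and 0.661, 0.703 and 0.757 in the APL progenitors, a log2 difference of 0.14 (two-sided exact permutation p of 0.5). Tbl1x was thus the higher of the pair per length in all 6 libraries, although Tbl1xr1 had more scaled fragments in each. A unit of FPKM corresponded to 219 scaled fragments for Tbl1xr1 and 68.1 for Tbl1x, so this order rests on the lengths the table used. Without MP library 3 and APL library 1, the log2 difference of the FPKM ratio was 0.08.

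Hdac8, the class I enzyme outside these complexes, was not called, with a log2 fold change of −0.40 (SE 0.12; 1.32-fold lower) and a limma adjusted p of 0.0177 that was 0.0693 without APL library 2. Coro2a, an actin-binding coronin found with NCoR, had 1734, 1605 and 2038 scaled fragments in the MPs and 176, 183 and 152 in the APL progenitors. It was the NCoR-associated gene with the largest change, 10.5-fold lower (log2 fold change −3.39, SE 0.12).

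In the MPs the order of FPKM ran Hdac2, Hdac1, Sin3b, Hdac3, Gps2, Ncor1, Sin3a, Tbl1x and Tbl1xr1. Neighbours from Hdac2 down to Gps2 overlapped between libraries, whereas each step from Gps2 down did not. In the APL progenitors the order ran Sin3a, Sin3b, Hdac1, Hdac2, Hdac3, Ncor1, Gps2, Tbl1x and Tbl1xr1, and among neighbours overlap was found between Hdac3 and Ncor1 and between Ncor1 and Gps2. Sin3a thus moved from the seventh place to the first. Sin3b to Sin3a was 2.48, 2.33 and 3.34 in the MP libraries and 0.560, 0.665 and 0.643 in the APL libraries. The log2 ratio differed by −2.11 (two-sided exact permutation p of 0.1), and Sin3a became the higher of the scaffolds in all 3 APL libraries. The level of Sin3b rests on the length the table used for it. A unit of its FPKM corresponded to 32.1 scaled fragments on average, against 159 for Sin3a, although coding transcripts of Sin3b in an earlier mouse annotation are 4117 and 1025 bases long and those of Sin3a reach 5206. In scaled fragments Sin3a exceeded Sin3b in every library of both groups, and the log2 difference of the ratio was −2.21. Without MP library 3 and APL library 1, the log2 difference of the FPKM ratio was −1.88.

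**Figure D4:**
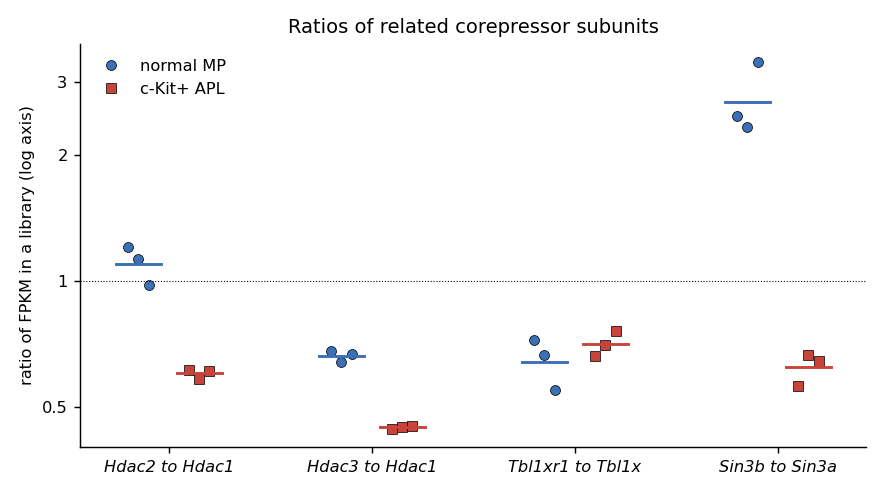
Ratio of FPKM within each library (log axis) for 4 pairs of related subunits, with circles for normal MP libraries, squares for c-Kit+ APL libraries, a line at each geometric mean and a dotted line at equal levels. Hdac2 to Hdac1, Hdac3 to Hdac1 and Sin3b to Sin3a are lower in all 3 APL libraries than in any MP library, and Tbl1xr1 to Tbl1x overlaps.

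HDAC1 and HDAC2 also serve other complexes, and several subunits of these were called lower. Over the 60 genes of the wider corepressor list, 15 were called lower, near the 24.4% of all genes tested, and 8 higher, below the 21.7% of all genes, with a median log2 fold change of −0.32. Of 10 NuRD subunits, against the same shares, 5 were called lower (Chd3, Mta1, Mta2, Mta3 and Cdk2ap1) and none higher, with a median of −0.48. Chd3, a chromatin-remodelling ATPase, had 1330, 1382 and 1296 scaled fragments in the MPs and 25.9, 29.5 and 25.9 in the APL progenitors, a log2 fold change of −5.57 (SE 0.12). Its paralogue Chd4 had one of −0.34 (SE 0.08) and was not called. In FPKM, Chd4 was at 63.1 in the MPs and 50.8 in the APL progenitors and Chd3 at 6.31 and 0.131.

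Of 6 CoREST subunits, 2 were called lower, the scaffold Rcor2 (log2 fold change −2.54, SE 0.19) and the histone demethylase Kdm1a (−0.59, SE 0.08), and none was called higher, where 24.4% and 21.7% of all genes were. Rcor2 was at 187, 192 and 249 scaled fragments in the MPs and at 31.8, 39.9 and 33.3 in the APL progenitors. Of 5 MiDAC and MIER subunits none was called, with a median log2 fold change of −0.35 and an adjusted p under 0.05 for 3 of them in limma's test (C130039O16Rik, Mier1 and Mier2), all lower, beside 37.3% of all genes.

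Of the 7 class II and IV deacetylases, 3 were called lower and 2 higher, where 24.4% and 21.7% of all genes were. Hdac9 had 131, 101 and 115 scaled fragments in the MPs and 1394, 1429 and 1311 in the APL progenitors, without overlap. This was an 11.9-fold increase (log2 fold change 3.57, SE 0.12), the largest among the deacetylases. Hdac5, a second class IIa enzyme, rose as well (log2 fold change 1.23, SE 0.14). Hdac7, also of class IIa, fell from 4007, 3982 and 4456 scaled fragments to 1490, 1798 and 1645 (log2 fold change −1.34, SE 0.09), although its locus in the table is shared with another gene. Hdac10 and Hdac11 were lower too, with log2 fold changes of −0.97 (SE 0.11) and −1.93 (SE 0.33). Hdac7 and Hdac10 lie on chromosome 15, whose genes had a median log2 fold change of 0.46. Over all 11 zinc-dependent deacetylase genes, 4 were called lower and 2 higher, counts that stand beside the same shares of all genes.

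**Figure D5:**
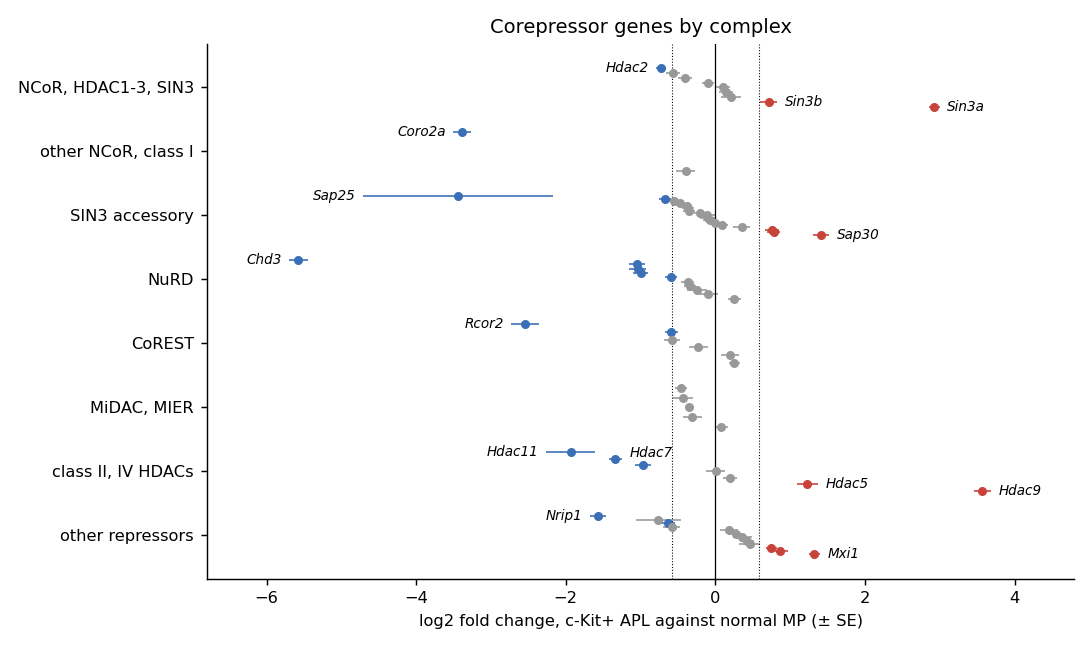
Log2 fold change (± SE) of c-Kit+ APL against normal MP for the members (top row, NCoR, HDAC1-3, SIN3) and the wider corepressor genes by complex, with blue for genes called lower, red for genes called higher, grey for the others and dotted lines at a 1.5-fold change. Sin3a at 2.92 and Hdac9 at 3.57 are the largest increases, and Chd3 at −5.57 the largest decrease.

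Among 12 DNA-binding repressors and other corepressors, 3 were called higher and 2 lower, near the shares over all genes (21.7% and 24.4%). Mxi1 and Mxd4, which pair with MAX and bring SIN3 to E-boxes, rose with log2 fold changes of 1.32 (SE 0.08) and 0.87 (SE 0.11), and Ctbp2, a corepressor of another family, with one of 0.75 (SE 0.07). Mxi1 had 1323, 1179 and 1328 scaled fragments in the MPs and 3046, 3197 and 3324 in the APL progenitors. Nrip1, a corepressor of ligand-bound receptors, was lower (log2 fold change −1.57, SE 0.10), as was Trim28, the partner of KRAB zinc finger proteins (−0.64, SE 0.10). Of 10 coactivators that oppose these complexes at nuclear receptors, 2 were called higher and 2 lower, again near those shares. The acetyltransferase gene Kat2b had 879, 889 and 838 scaled fragments in the MPs and 2140, 2220 and 2108 in the APL progenitors (log2 fold change 1.31, SE 0.07), and Ncoa1 had a log2 fold change of 0.68 (SE 0.10). The arginine methyltransferase gene Carm1, whose locus in the table is shared with other genes, had one of −1.47 (SE 0.07), and the Mediator subunit gene Med1 one of −0.64 (SE 0.11).

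The genes whose profiles were most like that of Sin3a were Gpt2, Etl4 and Zfp36l3. Their mean-centred log2 values over the 6 libraries had root mean square distances of 0.06, 0.07 and 0.07 from those of Sin3a, and 8 genes lay within 0.1. Zfp36l3 was below 2 scaled fragments in every MP library, so its profile depends on the pseudocount. The log2 fold change of Zfp36l3 lay between 1.96 and 3.61 under the alternatives. Etl4 was low in the MPs too, at 30.0, 35.2 and 28.9 scaled fragments, and its log2 fold change lay between 2.20 and 3.22. Gpt2, an alanine aminotransferase gene on chromosome 8, had 133, 156 and 129 scaled fragments in the MPs and 1060, 1081 and 1138 in the APL progenitors. For Hdac2 the nearest profiles were those of Mpp6, Ctps and Ipo5, at 0.02 each, and 473 genes lay within 0.1. Many more genes thus lay within that distance of Hdac2 than of Sin3a. The distance includes differences in fold size, so these counts do not compare the shapes of the profiles alone. Of the genes tested, 3.86% had a larger log2 fold change than Sin3a and 77.6% a larger one than Hdac2.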

How the data were processed

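RNA-seq of 3 normal MP and 3 c-Kit+ APL libraries was read from a deposited table of 16440 genes with a locus, FPKM and fragments. The deposited FPKM values are normalized by the authors to transcript length and library. The deposited fragments are a signal that was already scaled, by a different factor in each library, when the authors deposited it: between 88.1% and 89.2% of low values were whole multiples (within 0.01) of a step that differed between libraries, so no count test was used. The methods name FastQC, Cutadapt, STAR on mm9, HTSeq-count and DESeq2 with a threshold on P and a fold change over 1.5, whereas the submitters' processing notes name CASAVA 1.8, TopHat2 2.0.6 and mm10. The tool that made the table is not given in the sources used here. Its loci follow GRCm38: 16361 identifiers are in RefSeq of GRCm38.p6, with 7057 starts equal after adding 1, and coordinates are printed 1-based. The depth, between 21876288 and 25810097 scaled fragments per library, left every member at 876 scaled fragments or more in each library.

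limma 3.58.1 in R 4.3.3 (lmFit, eBayes with trend) compared APL with MP on log2(scaled fragments + 1) for genes with at least 1 in at least 3 libraries. Fold changes on this scale understate those of low genes. Ratios used two-sided exact permutation tests in scipy 1.17.1 (Python 3.11.15), and figures matplotlib 3.10.9. The code of the fit was checked on simulated counts, which lack the scaled values and the many changed genes of these data. Named were all 9 members, up to 12 called genes of the wider and coactivator lists with the largest absolute log2 fold change, Hdac8, and the 3 nearest profiles to the members of largest rise and fall. The result of 1 further gene of this rule is not reported here. Other genes were named after their values were seen, to spell out counts. Members and lists were chosen with earlier results of these data known. Elmsan1 was matched as C130039O16Rik through a RefSeq synonym, and Pax5 was not used here. Other marker lists were summarised by genes called lower and higher: mast cell and basophil 3 and 1 of 5, eosinophil 2 and 0 of 2, monocyte and dendritic 4 and 1 of 5, mature neutrophil 2 and 2 of 7, B cell 2 and 1 of 4, T and NK cell 1 and 0 of 3, stroma and endothelium 3 and 1 of 5, erythroid 6 and 0 of 7, megakaryocyte 5 and 0 of 6, and promyelocyte 0 and 3 of 4. Of the markers Kit, Cd34, Cd33 and Ly6a, 2 (Kit, Cd34) were called lower and 2 (Cd33, Ly6a) higher. Kit was used in the sort of both groups and Ly6a (Sca-1) in that of the MPs. Alternatives covered the pseudocount, the filter, quantile normalization, scaling to the same total or by the median ratio, FPKM, the unadjusted p, a block by library number and each library left out. Promoter sequences are from RefSeq, GRCm38.p6, and transcript lengths from an annotation of the earlier build mm9.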

Additional observations from a re-analysis of the deposited data

How the results depend on the processing

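Of 464 log2 fold changes of 29 named genes under 16 alternatives, 446 kept their direction and side of the threshold, and 23 genes kept both throughout. Leaving out MP library 3 and APL library 1 together was chosen after seeing the data. The sign turned for Tbl1xr1 with the same total (−0.034), without MP library 3 (−0.0077) and without both libraries (−0.019), and for Ncor1 without both (−0.044), and neither passed the threshold under any of these. With a library left out, the log2 fold change lay between −0.0077 and 0.17 for Tbl1xr1 and between 0.067 and 0.29 for Ncor1. Members called lower came to 2, with Gps2 added, under quantile normalization and the same total, and to between 1 and 2 with a library left out (2 without MP library 1 or 2). Members called higher came to 1 with the same total, where Sin3b fell just under the fold threshold at 0.58. Hdac1 passed the adjusted p of limma's test, not the fold, by the median ratio (0.0356), without MP library 3 (0.00706) and without both. Coactivators called higher came to 1 with the same total and without both, and those called lower to 1 by the median ratio and to between 1 and 3 with a library left out (1 without MP library 2 or APL library 2, 3 without MP library 3 or APL library 1). The log2 difference of Sin3b to Sin3a was −1.88 without both and lay between −2.21 and −1.95 with a library left out. Sap25 lost its call under a pseudocount of 0.5, no filter, quantile normalization, without MP library 2, without MP library 3 and without both, and its log2 fold change lay between −4.67 and −1.65 with a library left out. The causes were not tested, apart from the construction of each alternative. The same total moved the median of all genes from −0.10 to −0.23 and the share of lower among called genes from 52.9% to 61.4%, against 47.9% under quantile normalization, 49.0% by the median ratio and 47.2% without MP library 3. Same-numbered libraries deviated together for numbers 1 (correlation 0.356) and 3 (0.386) and not for 2 (−0.200) over 9886 genes, so the numbers were not taken as pairs. With the replicate block, 1 member was called lower and 2 higher, 16 of the wider list lower, and 3589 genes lower and 3164 higher overall. Groups of 3 libraries limit every test here, and no exact permutation p can go below 0.1.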
